A study of Mus musculus with 6 samples.

Results

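The cytosolic ribosomal protein genes encode the proteins that, with ribosomal RNA, build the large and the small subunit of the ribosome in the cytosol. They were taken as the protein-coding rows of the deposited count table whose mouse symbol follows the Rpl or Rps naming pattern, which gave 83 of 57126 genes, 51 named for the large subunit and 32 for the small subunit. The 6 RNA sequencing libraries came from OT-I CD8+ T cells of the mouse, which carry a transgenic receptor for a peptide of ovalbumin, all grown with nano-aAPCs (nanoparticles that stand in for antigen-presenting cells) and harvested on day 6. The 3 TEff samples were expanded in IL-2, and the 3 TRM-like samples with IL-15 and TGF-β beside IL-2, a mix meant to give cells that resemble tissue-resident memory cells. These are cultures of T cells and not cells taken from a tissue, and the labels do not say whether the replicates came from separate mice or cultures, so the p-values measure the spread between these samples, which may be technical.

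Every ribosome carries a single copy of nearly all of these proteins, so a growing cell needs them in near-equal amounts, and T cells make many ribosomes when they are activated and divide. Most of these mRNAs begin with a tract of pyrimidines, the terminal oligopyrimidine (TOP) motif, through which the kinase mTORC1 controls how much protein is made from them. Counts of mRNA do not measure that translation. The genes have also left many processed pseudogenes in the mouse genome, copies of the spliced mRNA that lie elsewhere without introns and can be close to identical to the gene.

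The libraries differed in ways that bear on the values. Between 18319013 and 23622621 reads were counted per sample. TRM-like replicates 1 and 2 detected 35130 and 35559 genes by at least 1 read, where the remaining libraries detected 24229 to 24908. TRM-like replicate 3 stood apart from the other samples of its group, and the number of genes past the threshold rose from 786 of 26154 to 3579 of 25478 when it was left out, so results are given with and without it where they differ. The T cell gene Cd8a was counted in every sample, at 421 to 448 CPM in TEff and 926 to 989 CPM in TRM-like samples, where CPM is the count relative to the library size after edgeR's TMM scaling. Cd3g, of the T cell receptor complex, stood at 512 to 537 CPM in TEff and at 1060, 1166, and 518 CPM in TRM-like replicates 1 to 3, and Cd3d, also of that complex, at 356 to 381 against 507, 585, and 300 CPM, with replicate 3 below every TEff sample. Over 5 T cell markers the summed level was 1658 to 1761 CPM in TEff and 2963, 3223, and 2298 CPM in TRM-like samples. That of 2 NK cell markers was 9.83 to 22.0 CPM in TEff and 8.76, 6.95, and 0.0922 CPM in TRM-like samples, and that of 3 stroma markers 46.2 to 63.2 CPM against 38.7, 41.2, and 19.4 CPM. Nearly all of the NK sum was Klrb1c, with Ncr1 at 0 to 0.262 CPM. Nearly all of the stroma sum was Pecam1, with Col1a1 at 0.0922 to 0.654 CPM. Each of these sums thus follows that gene and does not measure a share of NK or stroma cells. The summed level of 5 B cell markers was 5.94 to 10.9 CPM, that of 7 myeloid and dendritic cell markers 1.43 to 12.6 CPM, lowest in TRM-like replicate 3, and that of 4 globin genes at most 0.0461 CPM. The part of these marker levels in the results was not tested.

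Runs of pyrimidines lay near the start of many of these genes. They were looked for anywhere in a window, and a TOP motif begins at the first base of the mRNA, so a run need not be one. In RefSeq promoters (assembly GRCm38.p6), which were found for 62 of the 83 genes, a run of at least 8 pyrimidines beginning with C lay within 50 bases of the start on the gene's strand in 52, or 83.9%, against 32.0% of all 27025 genes in the table. The letters CTTTCC, which can lie inside such a run, were found in the same window in 30.6% of the ribosomal protein genes and 5.43% of all genes, and CCGGAAG, the core of the site of ETS factors, on either strand of the promoter in 40.3% and 9.93%. The TATA box letters TATAAA lay in the 50 bases before the start of 1.61% and 3.15%. The 30 bases around the tract are shown for 5 genes discussed in the text, with the tract in capitals and with the position on GRCm39 found by exact match. In the order shown, the tract began at -1, -3, 3, 5, and -4 relative to the RefSeq start. In other genes discussed it lay further off, as in Rpl39, Rpl41, and Rpl5 at 37, 41, and -20.
Rps6, chr4:86775584-86775613, minus strand: aagtcgggCCTCTTTTTCgtgacgcctccc
Rps10, chr17:27854200-27854229, minus strand: cgcgcacgCCCCTTCCTTTCCagcctccgc
Rpl13a, chr7:44778146-44778175, minus strand: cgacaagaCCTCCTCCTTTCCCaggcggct
Rps26, chr10:128462350-128462379, minus strand: cgccggatCCTCTTTCgagtcttggctcca
Rplp2, chr7:141027552-141027581, plus strand: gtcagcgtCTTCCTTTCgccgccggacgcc
The median log2 fold change was -0.06 over the 52 tested genes with the run and 0.03 over the 9 tested genes with a promoter but no run. With the reads of pseudogenes added, as described further on, these medians were 0.11 and 0.09, so their order was not kept.

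The likeness between genes and pseudogenes is shown for 3 pairs, each a gene and the pseudogene that took the most reads among those sharing sequence with it. For each pair, the 60 coding bases with the most mismatches are printed, with the mismatches in capitals. Rps6, which encodes the S6 protein phosphorylated downstream of mTORC1, has in Rps6-ps4 a copy on chromosome 2 whose 747 coding bases are all identical, so coding bases 1 to 60 hold no mismatch.
Rps6 coding bases 1 to 60: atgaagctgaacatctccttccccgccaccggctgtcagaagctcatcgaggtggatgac
Rps6-ps4, chr2:75022107-75022166, minus strand: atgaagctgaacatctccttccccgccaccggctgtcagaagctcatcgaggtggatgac
Rpl3, a core protein near the site of peptide bond formation, differs from Rpl3-ps1 on the X chromosome at 2 of 1209 coding bases.
Rpl3 coding bases 1 to 60: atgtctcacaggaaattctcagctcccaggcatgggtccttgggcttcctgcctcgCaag
Rpl3-ps1, chrX:13068811-13068870, plus strand: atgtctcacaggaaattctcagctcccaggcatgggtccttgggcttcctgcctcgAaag
Rps10, at the entry of the mRNA channel, differs from Rps10-ps2 on chromosome 16 at 5 of 495 coding bases.
Rps10 coding bases 379 to 438: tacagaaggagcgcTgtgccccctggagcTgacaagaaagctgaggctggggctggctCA
Rps10-ps2, chr16:20640953-20641012, minus strand: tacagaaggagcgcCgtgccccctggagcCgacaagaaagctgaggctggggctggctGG
Rps6-ps4 alone held 31187, 27371, and 25994 reads in TEff and 38939, 46195, and 29283 reads in TRM-like replicates 1 to 3. A read that covers no mismatch cannot be assigned to the gene or the copy by its letters. How reads that map to several places were counted is not given in the sources used here.

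TRM-like and TEff cells were compared to ask how the added IL-15 and TGF-β changed expression. None of the ribosomal protein genes passed the threshold, an adjusted p below 0.05 with an absolute log2 fold change above 0.58, in edgeR's quasi-likelihood test (0 of 82 tested), against 3.01% of all genes tested. DESeq2 and limma-voom also called 0. At an unadjusted p below 0.05, edgeR, DESeq2, and limma-voom each had 1 ribosomal protein gene, and edgeR had 3873 of 26154 genes. The smallest adjusted p of a ribosomal protein gene in edgeR was 0.285. The log2 fold changes were positive for 37 and negative for 45, with a median of -0.01, beside 0.02 over all genes tested. Their median size was 0.13 on the log2 scale for the 79 of them that reached 10 counts in each sample, against 0.20 over all 14822 genes that did.

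The intervals bound the size of the change in the counts of each gene row taken alone, given the spread between these samples. The 95% interval of the log2 fold change lay wholly within 0.58 of 0 for 65 of the 82 genes and reached past it for 17, of which 14 reached 10 counts in each sample. With the reads of pseudogenes added, as described further on, it lay within 0.58 for 54. Among those 14 was Rps16, with 27.3, 60.8, and 89.0 CPM in TEff and 50.6, 57.8, and 91.0 CPM in TRM-like samples, named here after its values were seen. Its samples spread more within a group than between the groups. The median standard error was 0.14. The median log2 fold change was -0.06 over 50 large-subunit genes and 0.05 over 32 small-subunit genes.

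**Figure D1:**
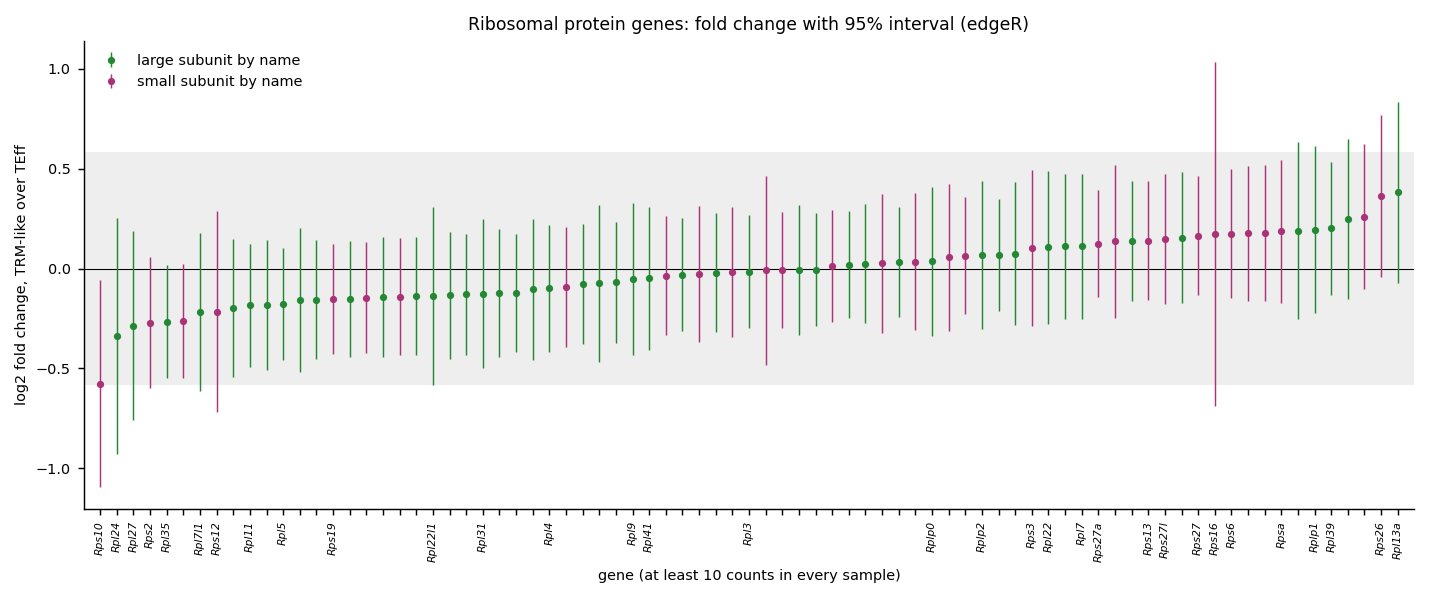
Log2 fold change of TRM-like over TEff (vertical axis) for the 79 ribosomal protein genes that reached 10 counts in each sample, ordered from lowest to highest, with some of the genes named in the text labelled. Points are edgeR estimates from 3 samples a group, bars are 95% intervals, colours give the subunit in the gene's name, and the grey band spans 0.58 to either side of 0. The points run from -0.58 for Rps10 to 0.38 for Rpl13a, and Rps10 has the only interval that leaves out 0.

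Rps10 (ENSMUSG00000052146.17, chr17:27849390-27855643, minus strand, GRCm39) had the lowest value. Its row held 13.4, 14.0, and 13.9 CPM in TEff and 7.1, 7.7, and 12.9 CPM in TRM-like replicates 1, 2, and 3. All TRM-like samples were below all TEff samples, with replicate 3 close to them. The log2 fold change was -0.58 (SE 0.23), and its adjusted p in edgeR was 0.285. Rpl24, a large-subunit protein next to the small subunit (ENSMUSG00000098274.8, chr16:55786638-55791798, plus strand), had 4.8, 6.1, and 5.2 CPM in TEff and 3.1, 3.8, and 5.9 CPM in TRM-like samples, so that the groups overlapped through TRM-like replicate 3. Its log2 fold change was -0.34 (SE 0.26). These were also among the lowest counts of the family, and on the later GENCODE annotation 53.6% of the exon bases of Rps10 and 71.5% of those of Rpl24 lie within another gene on the same strand, Gm49804 and Gm28037, which had 0 reads in every sample. The same was true of 59.3% of the exon bases of Rpl13a, the gene with the highest value, which lie within Gm45713.

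Rpl27, Rps2, and Rpl35 were the next lowest. Rpl27 had 20.8, 17.9, and 22.3 CPM in TEff and 12.2, 16.3, and 21.6 CPM in TRM-like samples, a log2 fold change of -0.29 (SE 0.21). Rps2, which lies near the mRNA channel, had 282, 248, and 301 CPM against 204, 254, and 230 CPM, a log2 fold change of -0.27 (SE 0.14). The TRM-like samples of both overlapped TEff. Rpl35, at the tunnel through which new protein leaves the ribosome, had 63.2, 57.0, and 67.7 CPM against 49.2, 54.5, and 52.5 CPM, with all TRM-like samples below TEff and a log2 fold change of -0.27 (SE 0.13).

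At the other end stood Rpl13a, Rps26, and Rpl39, among others. Rpl13a (ENSMUSG00000074129.15, chr7:44774982-44778263, minus strand), which in human monocytes leaves the ribosome to repress inflammatory mRNAs, had 47.4, 48.0, and 52.7 CPM in TEff and 67.5, 80.6, and 45.0 CPM in TRM-like samples. TRM-like replicates 1 and 2 were above every TEff sample and replicate 3 below them all, and the log2 fold change was 0.38 (SE 0.20). Rps26 (ENSMUSG00000025362.7, chr10:128460395-128462636, minus strand), which touches the mRNA where it leaves the small subunit, had 287, 279, and 327 CPM against 386, 466, and 298 CPM, a log2 fold change of 0.36 (SE 0.18). Rpl39, at the tunnel through which new protein leaves, had 273, 298, and 285 against 333, 374, and 279 CPM, a log2 fold change of 0.20 (SE 0.15). In both of these, too, TRM-like replicates 1 and 2 lay above every TEff sample and replicate 3 did not.

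The groups did not overlap for 8 ribosomal protein genes, where 20.3% of all genes tested had groups that did not overlap. Every TRM-like sample was above every TEff sample for Rps13 and Rps27a. Every TRM-like sample was below for Rpl5, Rpl35, Rps10, Rps18, Rps19, and Rps21, of which Rps18 and Rps21 were named after their values were seen. Rps27a is made as a fusion with ubiquitin, and its CPM were 65.5, 65.4, and 66.6 in TEff and 69.3, 77.3, and 68.6 in TRM-like samples, a log2 fold change of 0.12 (SE 0.12). Rpl5 and Rpl11 bind the 5S ribosomal RNA and, when free of the ribosome, the p53 regulator Mdm2. Rpl5 had 191, 193, and 210 CPM in TEff and 166, 179, and 180 CPM in TRM-like samples, and Rpl11, whose groups overlapped, 41.3, 38.9, and 48.6 against 34.8, 40.5, and 38.1 CPM. Their log2 fold changes were both -0.18 (SE 0.12 and 0.14). Rps19, mutated in Diamond-Blackfan anaemia, had 218, 221, and 233 against 202, 211, and 192 CPM and a log2 fold change of -0.15 (SE 0.12).

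Of the stalk proteins, which draw translation factors to the large subunit, Rplp0 and Rplp1 were among the highest rows per kilobase and Rplp2, at 271 CPM per kilobase, was not. Rplp0 had 1691, 1621, and 1763 CPM in TEff and 1774, 1990, and 1438 CPM in TRM-like samples, a log2 fold change of 0.04 (SE 0.16). Rplp1 had 835, 782, and 877 against 1021, 1118, and 714 CPM, a log2 fold change of 0.19 (SE 0.18). Rplp2 had 269, 299, and 266 against 286, 350, and 238 CPM, a log2 fold change of 0.07 (SE 0.16). In all 3 genes TRM-like replicate 2 was the highest and replicate 3 the lowest of the 6 samples. Other members, most with known roles outside the ribosome, had these log2 fold changes: Rpsa, also known as a laminin receptor, at 0.19 (SE 0.16), Rps3, also a DNA repair nuclease, at 0.10 (SE 0.17), Rps6 at 0.17 (SE 0.14), and Rpl41, a very short peptide, at -0.05 (SE 0.16). None of their adjusted p-values in edgeR was below 0.05, and their TRM-like samples overlapped TEff. Without TRM-like replicate 3 the log2 fold changes of Rpsa, Rps3, Rps6, and Rpl41 were 0.28, 0.23, 0.27, and 0.03. With pseudogene reads added as well they were 0.46, 0.25, 0.35, and 0.05, with adjusted p-values in edgeR of 0.0118, 0.135, 0.0486, and 0.816. In that fit 20.3% of all genes had an adjusted p below 0.05. This pairing of steps was picked once the values were known.

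The paralogs, second copies of a gene that carry the suffix l or l1, were lower than their partners per kilobase of gene, with the exception of Rps27l. Rpl10l, known from the testis, had 1 read in TRM-like replicate 2 and 0 in the others, and was the only gene of the 83 that was not tested. Rpl39l, also known from the testis, had 0 to 5 reads per sample, Rpl3l, a gene of muscle, 3 to 19, and Rps4l 8 to 21. Rpl7l1, which works in ribosome assembly, stood at 5.65% ± 0.240 (SD, n = 3) of the level of Rpl7 in TEff and 4.71% ± 1.91 in TRM-like samples. Rpl22l1 stood at 13.0% ± 1.88 and 11.7% ± 5.47 of Rpl22, which is needed for the development of αβ T cells. In both pairs TRM-like replicates 1 and 2 were below and replicate 3 above every TEff sample. Rps27l, a p53 target, stood at 217% ± 45.6 and 214% ± 28.7 of Rps27. That excess is on the gene rows only, as 93.5% of the reads on Rps27 and its pseudogene rows were on the pseudogene rows. The percentages of Rpl7l1 rest on gene rows too, and pseudogene rows held 62.3% of the reads of Rpl7 and 2.27% of those of Rpl7l1. With pseudogene reads added, the mean level was 1410 CPM per kilobase for Rpl7 and 27.5 for Rpl7l1.

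Although ribosomes hold these proteins in near-equal number, the gene rows did not hold near-equal counts. Among the 79 genes that reached 10 counts in each sample, the mean level ran from 7.11 to 1786 CPM per kilobase, a ratio of 251, with a median of 115. Among the highest were Rplp1 at 1786, Rpl4 at 1274, Rplp0 at 1261, and Rpl41 at 1198 CPM per kilobase. The lowest were Rpl24 at 7.11, Rpl31 at 7.42, Rps10 at 9.41, Rps13 at 9.59, and Rpl9 at 9.74 CPM per kilobase. In the genome (GRCm39), a median of 38.6% of the 64-base stretches of a gene's main transcript were also found elsewhere, reaching 93.6% for Rpl23a, which was named after its value was seen.

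The pseudogenes held more reads than the genes. Of the rows in the table, 846 were pseudogenes that shared at least 1 stretch of 64 bases with a ribosomal protein transcript, and 79 of the 83 genes had at least 1 such row, with a median of 6 and as many as 94. The gene rows held 2.32%, 2.31%, and 2.42% of all counts in TEff and 2.45%, 2.66%, and 2.18% in TRM-like replicates 1 to 3. The counting error is small beside these differences, with a 95% Wilson interval of 2.31% to 2.32% in TEff replicate 1. The exception is the difference between TEff replicates 1 and 2, whose intervals overlap. The pseudogene rows held 4.69%, 4.70%, and 4.85% in TEff and 5.45%, 6.05%, and 4.48% in TRM-like samples. That is 2.03, 2.03, and 2.01 reads on pseudogene rows for each read on a gene row in TEff and 2.22, 2.27, and 2.06 in TRM-like samples. As shares of the library total, TRM-like replicates 1 and 2 were above and replicate 3 below every TEff sample on either kind of row. Relative to the library size after TMM scaling, the gene rows held 2.29% to 2.45% in TEff and 2.42%, 2.75%, and 2.13% in TRM-like samples, so that TRM-like replicate 1 lay within the TEff range. For 59 of the 83 genes the pseudogene rows held more reads than the gene row, and for Rpl24, Rpl31, Rps10, Rps13, and Rpl9, the lowest rows, they held 98.6%, 98.6%, 98.4%, 98.3%, and 95.9% of the reads.

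**Figure D2:**
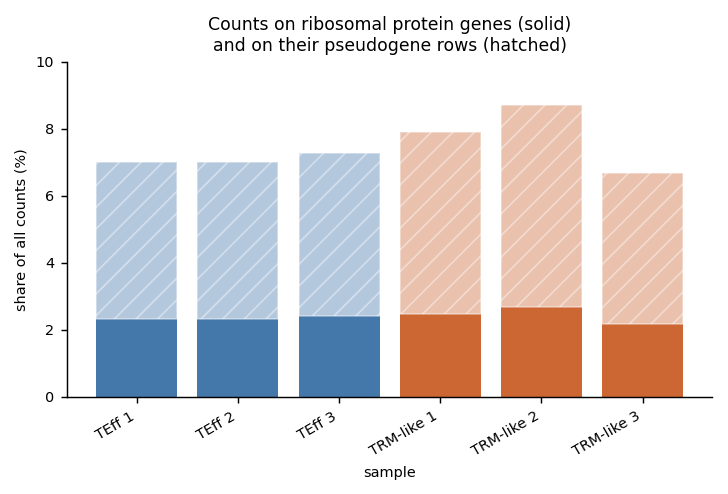
Share of all counts in each sample (vertical axis, percent) on the 83 ribosomal protein genes (solid) and on the 846 pseudogene rows that share a 64-base stretch with them (hatched), for 3 TEff samples (blue) and 3 TRM-like samples (orange). The stacked bars reach 7.01% to 7.27% in TEff, 7.90% and 8.72% in TRM-like replicates 1 and 2, and 6.67% in replicate 3.

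None of the 729 pseudogene rows that could be tested passed the threshold in edgeR, DESeq2, or limma-voom. In edgeR 39 had an unadjusted p below 0.05, against 14.8% of all genes tested. The median log2 fold change of the 729 rows was -0.04. The number of these pseudogene rows with at least 1 read was 703 to 714 in TEff and 726, 728, and 705 in TRM-like replicates 1 to 3. Pseudogenes of other genes with at least 1 read numbered 3213 to 3351 in TEff and 5073, 5222, and 3289 in TRM-like samples, while their share of all counts was 3.66% to 4.26% in TEff and 3.77%, 3.90%, and 4.61% in TRM-like samples. The part of these library differences in the ribosomal protein values was not tested.

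When the reads on each pseudogene row were added to the gene it shared the most sequence with, a step chosen after the data were seen, the levels drew together. The SD of the log2 level over the 79 genes fell from 2.05 to 1.30, and the median rose from 115 to 851 CPM per kilobase. Without the 3 expressed paralogs Rpl7l1, Rpl22l1, and Rps27l, the ratio of highest to lowest was 251 before and 24.3 after the addition, over 76 genes. Rpl24 moved from 7.11 to 498, Rps10 from 9.41 to 594, and Rps6 from 166 to 2367 CPM per kilobase, while Rpl41, with no such pseudogene row, stayed at 1198. The median level with the addition was 574 for the 20 genes with under 20% of their stretches elsewhere, 872 for the 40 genes with 20% to 60%, and 1332 for the 19 genes above that. The sum can count reads made by a pseudogene itself, and the deposited length of the gene was kept for the scale.

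**Figure D3:**
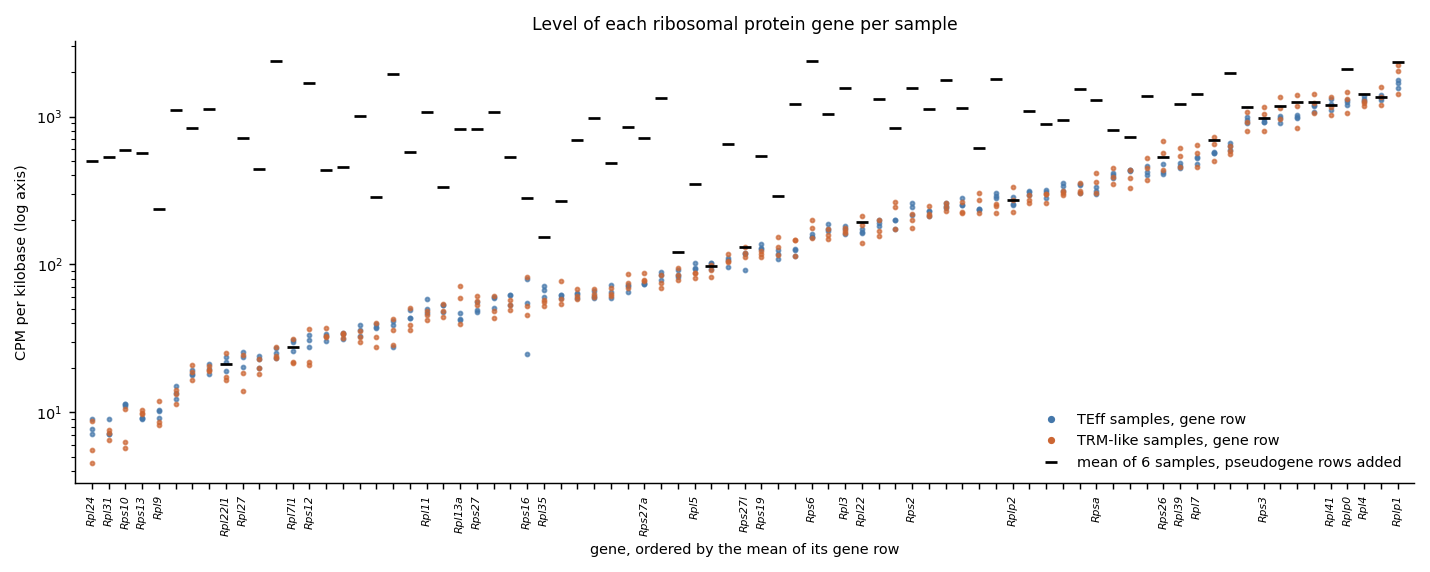
Level of 79 ribosomal protein genes in CPM per kilobase (vertical log axis), ordered by the mean of the gene row and labelled for some of the genes named in the text, with a dot for each TEff (blue) and TRM-like (orange) sample and a black dash for the mean of the 6 samples after the reads of the pseudogene rows were added. The dots rise from 7.11 for Rpl24 to 1786 for Rplp1, and most dashes lie between 98.2 and 2381 whatever the height of the dots.

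The addition also moved the fold changes. The ribosomal protein genes again had none past the threshold (0 of 82 in edgeR, against 3.07% of all genes, and 0 in DESeq2 and limma-voom), and 0 had an unadjusted p below 0.05 in any of these tools. The median log2 fold change went from -0.01 to 0.11, with 66 positive and 16 negative, while the median of all genes was 0.02. Rps10 went from -0.58 to 0.02 (SE 0.16), Rpl24 from -0.34 to 0.10 (SE 0.15), and Rps12, named after its values were seen, from -0.22 to 0.26 (SE 0.17). With the addition, Rps10 had 701, 728, and 736 CPM in TEff and 737, 858, and 597 CPM in TRM-like samples, so that TRM-like replicate 3 was the lowest sample instead of replicates 1 and 2. Rpl13a and Rps26, which were high on the gene row, had log2 fold changes of 0.40 (SE 0.20) and 0.35 (SE 0.18).

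Leaving out TRM-like replicate 3 changed the calls. On the gene rows, 2 of 82 ribosomal protein genes then passed the threshold, against 14.0% of all genes. They were Rps10 at a log2 fold change of -0.91 (adjusted p in edgeR 0.000424) and Rpl24 at -0.66 (adjusted p in edgeR 0.0298). By the adjusted p alone, edgeR had 12, of which 6 were higher and 6 lower, against 20.5% of all genes. Rpl13a, Rps26, Rplp1, and Rpl32 were among those higher in TRM-like samples, and Rps10, Rpl24, Rpl27, Rps12, Rpl12, and Rpl7l1 lower. Rpl32, Rpl12, and Rps12 were named after their values were seen. With the pseudogene reads added and TRM-like replicate 3 left out, the adjusted p was below 0.05 for 23 of 82, 22 higher and 1 lower, against 20.3% of all genes. The median log2 fold change was 0.24 (0.04 over all genes), and 74 were positive and 8 negative. Rpl13a, at 0.59 (adjusted p in edgeR 0.00395), was then the gene past the threshold, and Rps10 and Rpl24 stood at 0.15 and 0.23 with adjusted p-values of 0.392 and 0.176. The lower gene among the 23 was Rpl7l1 at -0.42 (adjusted p in edgeR 0.0202), which keeps 97.7% of its reads on its own row.

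**Figure D4:**
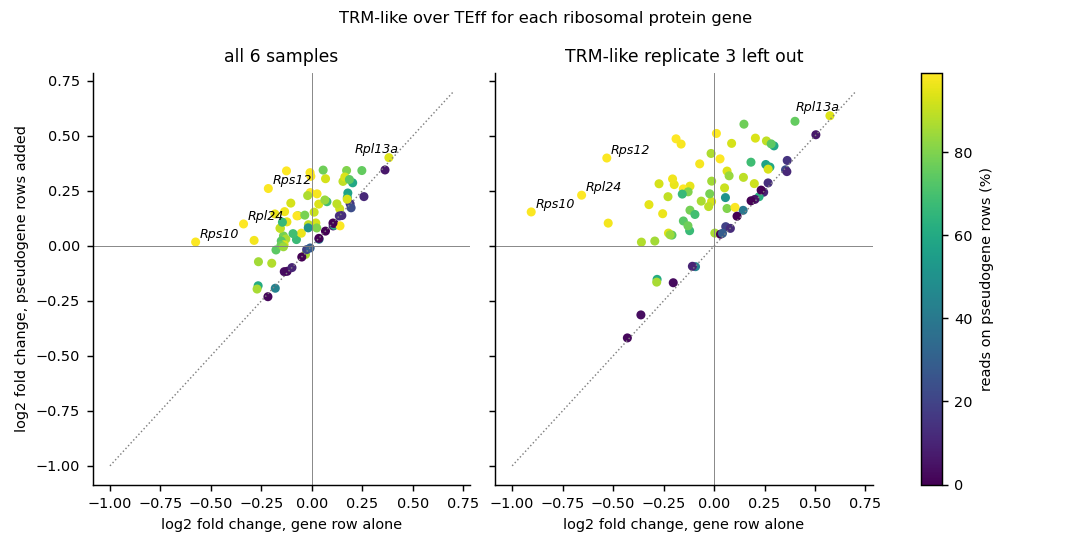
Log2 fold change of TRM-like over TEff for 79 ribosomal protein genes from the gene row alone (horizontal axis) and with pseudogene reads added (vertical axis), over all 6 samples (left) and without TRM-like replicate 3 (right). Colour gives the percent of a gene's reads on pseudogene rows and the dotted line marks equal values. Rps10 and Rpl24, at 98.4% and 98.6%, lie far to the left of the line in both panels, and Rpl13a lies on it at the upper right.

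The samples of the TRM-like group differed from each other. On the gene rows, the number of the 83 genes above every TEff sample was 23, 43, and 14 in TRM-like replicates 1, 2, and 3, and the number below every TEff sample was 33, 22, and 40. With the pseudogene reads added, 52, 73, and 3 were above and 10, 3, and 60 below. On the gene rows replicates 1 and 3 thus had more genes below than above and replicate 2 the reverse, while with the addition replicates 1 and 2 had more above and replicate 3 more below. The matching shares over all genes are not given here. As 1 sample often lies outside the range of 3 others when nothing differs, these counts describe the samples and are not a result about these genes.

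Ribosomal proteins that the naming pattern leaves out were tested alongside. None of 5 passed the threshold in edgeR, DESeq2, or limma-voom, and 0 had an unadjusted p below 0.05 in edgeR. Over all genes tested in edgeR these shares were 3.01% and 14.8%, so counts of 0 among 5 genes are not a result about them. Rack1, a scaffold on the small subunit, had 2125, 2076, and 2196 CPM in TEff and 2175, 2485, and 1803 CPM in TRM-like samples, with a log2 fold change of 0.01 (SE 0.16). Those of Rps3a1, Fau (a fusion with a ubiquitin-like protein), and Rpl36al were -0.06, -0.003, and -0.25.

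The 78 mitochondrial ribosomal protein genes, which build the separate ribosome of the mitochondria, had a median log2 fold change of -0.02. In edgeR 1 was higher and 0 lower, against 3.01% of all genes tested. The gene was Mrpl41, with 19.7, 17.6, and 18.5 CPM in TEff and 29.996, 31.7, and 30.2 CPM in TRM-like samples, a log2 fold change of 0.72 (SE 0.12, adjusted p in edgeR 0.0153). Mrps16 and Mrpl58 had log2 fold changes of 0.53 and 0.53 without passing the threshold. With TRM-like replicate 3 left out, both passed it, at 0.62 and 0.67 (adjusted p in edgeR 0.00116 and 0.000601). In that fit 4 of the 78 genes were higher and 2 lower, against 14.0% of all genes in either direction.

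Among the genes that assemble ribosomes, the mean level was low in TRM-like replicates 1 and 2 and not in replicate 3. Of 87 ribosome biogenesis factors, edgeR called 0 higher and 1 lower, against 3.01% of all genes tested. The log2 fold change was negative for 77 of them, and the median over the 87 was -0.18. The gene called was Nvl, an ATPase that frees factors from the large subunit precursor, with 133, 145, and 112 CPM in TEff and 71.2, 75.8, and 85.5 CPM in TRM-like samples (log2 fold change -0.74, SE 0.15, adjusted p in edgeR 0.0298). Wdr12, of the complex that processes large subunit precursors, had 39.4, 33.9, and 38.4 against 13.8, 16.6, and 31.1 CPM and a log2 fold change of -0.86 (SE 0.27, adjusted p in edgeR 0.171). Nmd3, which takes the large subunit out of the nucleus, went the other way, with 26.4, 25.5, and 33.2 against 36.8, 36.6, and 44.7 CPM and a log2 fold change of 0.47 (SE 0.15, adjusted p in edgeR 0.181), every TRM-like sample lying above every TEff sample. The mean log2 level of the 87 genes, relative to the TEff mean, was -0.53 and -0.50 in TRM-like replicates 1 and 2 and 0.25 in replicate 3. Without TRM-like replicate 3, 40 of the 87 were lower and 0 higher, against 14.0% of all genes in either direction.

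RNA polymerase I and III, which transcribe the ribosomal RNAs, and the translation factors had their lowest mean log2 levels in TRM-like replicates 1 and 2 and their highest in replicate 3. The summed level of the translation factors ran otherwise, at 20243, 19101, and 20424 CPM in TEff and 20292, 21956, and 19488 CPM in TRM-like samples. None of 26 polymerase genes and none of 49 translation factors passed the threshold in edgeR, DESeq2, or limma-voom, with 1 and 2 at an unadjusted p below 0.05 in edgeR and medians of -0.04 and -0.10. Over all genes tested in edgeR, 3.01% passed the threshold and 14.8% had an unadjusted p below 0.05. Polr3k, Polr3b, and Taf1c had log2 fold changes of -0.56, -0.46, and 0.22, and Eif1, Eif4a2, and Eif5b of -0.29, -0.38, and 0.29. Without TRM-like replicate 3, 3 polymerase genes were lower, and 7 translation factors were lower and 1 higher, against 14.0% of all genes. Among 39 regulators of TOP mRNAs and mTORC1, 2 were higher and 1 lower in edgeR over all samples, against 3.01% of all genes tested. Rragd, a GTPase that brings mTORC1 to lysosomes, had 1.23, 1.21, and 0.994 CPM in TEff and 6.02, 6.20, and 6.50 CPM in TRM-like samples (log2 fold change 2.43, SE 0.21, adjusted p in edgeR 0.000597). Max, the partner of Myc on DNA, had a log2 fold change of 1.11 (SE 0.15, adjusted p in edgeR 0.00467), and Mxi1, which competes for Max, one of -0.63 (SE 0.14, adjusted p in edgeR 0.0473). Mxi1 was not called by limma-voom, with DESeq2's size factors, or when any sample but TRM-like replicate 3 was left out. With that replicate left out, 5 of the 39 regulators were higher and 3 lower, against 14.0% of all genes in either direction.

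**Figure D5:**
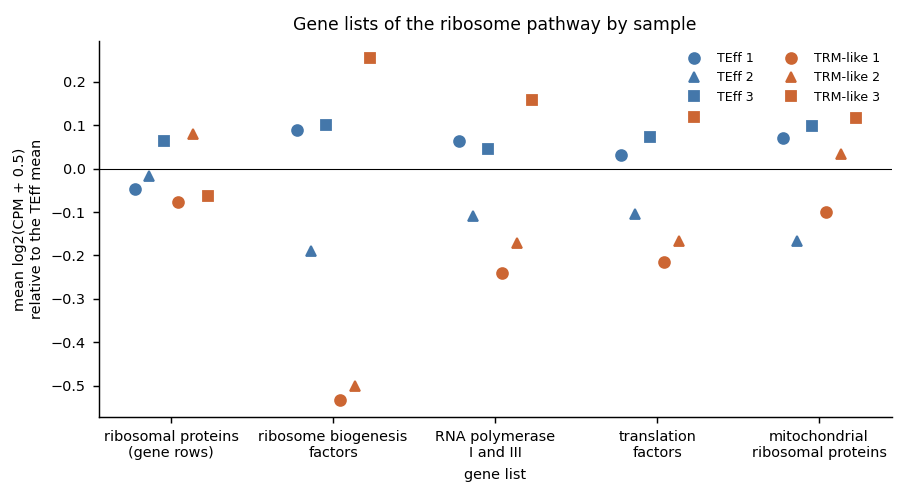
Mean log2(CPM + 0.5) of the tested genes of each list relative to the mean of the TEff samples (vertical axis), with a symbol for each of the 3 TEff (blue) and 3 TRM-like (orange) samples. The ribosomal protein rows stay between -0.08 and 0.08, and the biogenesis factors reach -0.53 in TRM-like replicate 1 and 0.25 in replicate 3.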

How the data were processed

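RNA sequencing of 3 TEff and 3 TRM-like samples was analysed, with groups from the sample labels. The authors trimmed the reads with Cutadapt 4.8, used Rsubread to map and count them against GENCODE M34 (GRCm39), and deposited raw read counts per gene with gene lengths. The library kit keeps strand, and the strand setting and the treatment of reads mapping to several places are not given in the sources used here. The study removed a batch that its text does not name, so none was modelled.

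Symbols and types came from GENCODE M39, which held 56620 of 57126 genes. Genes counted at least once in 3 or more samples were tested with edgeR 4.0.16 (glmQLFit, glmQLFTest, TMM) in R 4.3.3, with Benjamini-Hochberg adjustment over all genes. DESeq2 1.42.0 and limma-voom (limma 3.58.1), other scalings and filters, a replicate block, and fits without each sample were alternatives. SE is the absolute log2 fold change over the square root of F. The test was tested on simulated data. Pseudogene rows were matched by shared 64-base stretches of GRCm39.

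The genes and lists were chosen with earlier results of these data known. Named genes were the 5 highest and 5 lowest by fold change and by level among genes that reached 10 counts in each sample, untested genes, paralogs, genes with known other roles, and up to 3 genes with the smallest p in each other list. Some genes these rules select are not reported here. Wilson intervals of shares cover counting error only.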

Additional observations from a re-analysis of the deposited data

How the results depend on the processing

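The count of ribosomal protein genes past the threshold was 0 under DESeq2, limma-voom, the other scalings, the other filters, the adjusted p alone, and the addition of pseudogene reads, and 0 higher with 0 to 2 lower when each sample was left out in turn, the 2 without TRM-like replicate 3. With that replicate left out and pseudogene reads added, a choice made after the data were seen, it was 1 higher. Not all same-numbered samples deviated together (correlations of -0.33, 0.34, and 0.42 for numbers 1, 2, and 3, with 3 of 6 samples closest to their own number), and with the number as a block there was 1 lower, Rps10 at -0.62 (adjusted p in edgeR 0.0264), 2035 of all genes, and 7 lower biogenesis factors, 2 lower polymerase genes, 1 lower translation factor, and 2 lower TOP and mTORC1 regulators. The block on genes that reached 10 counts in each sample gave 0 ribosomal protein genes (Rps10 at an adjusted p in edgeR of 0.124), 2 lower biogenesis factors, and 2 lower regulators. The cause of these moves was not tested. The median log2 fold change of the ribosomal protein genes was 0.066 with pseudogenes named after a gene added, 0.11 with all sequence-sharing pseudogenes added, 0.24 with these added and TRM-like replicate 3 left out, and -0.08 to 0.03 with each sample left out. All genes past the threshold numbered 786 in the main setting, 1264 by DESeq2, 1868 with no filter (where the median of all genes was 0.38), 263 to 3579 with each sample left out, and 3518 with pseudogenes added and TRM-like replicate 3 left out. Lower biogenesis factors numbered 3 with no filter, 0 to 40 with a sample left out, and 37 with pseudogenes added and replicate 3 left out. In the last setting there were 3 lower polymerase genes, 1 higher and 6 lower translation factors, 4 higher and 2 lower mitochondrial ribosomal proteins, and 5 higher and 2 lower regulators. With a sample left out these ranged over 0 to 3 lower polymerase genes, 0 to 1 higher and 0 to 7 lower translation factors, 0 to 4 higher and 0 to 2 lower mitochondrial ribosomal proteins, and 1 to 5 higher and 0 to 3 lower regulators. Lower regulators numbered 2 by DESeq2 and with no filter, and 0 by limma-voom and with DESeq2's size factors. At this depth Rpl10l, with 1 read in all, could not be tested.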

Other observations

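Small nucleolar RNAs (snoRNAs), which guide the chemical modification of ribosomal RNA, lie in introns of many ribosomal protein genes. There were 57 snoRNA rows inside 29 of the 83 genes, and 52 could be tested. None passed the threshold in edgeR or limma-voom and 1 did in DESeq2, against 3.01% of all genes tested in edgeR. Their median log2 fold change was -0.15. In edgeR 1 had an unadjusted p below 0.05, against 14.8% of all genes tested. That one was Snora64 within Rps2, named after its values were seen, with 4.66, 3.69, and 4.14 CPM in TEff and 1.35, 1.49, and 2.95 CPM in TRM-like samples, a log2 fold change of -1.11 (SE 0.32, adjusted p in edgeR 0.121). All its TRM-like samples were below all TEff samples, and replicate 3 was again the closest to TEff.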
